A study of Mus musculus with 6 samples.

Results

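The 10 adipocyte genes Adipoq, Plin1, Lpl, Retn, Fabp4, Cidec, Cfd, Lep, Lipe and Pparg were followed, out of 35275 genes listed for these libraries, as a measure of the dermal fat carried in pieces of mouse skin. They were chosen by name as genes of fat cells, with earlier results of these data known, and each matched 1 row of the deposited tables. RNA had been taken from the epithelial region of back skin of C57BL/6 mice that lacked interleukin-33 (IL-33 KO or KO, 3 libraries) and of wild-type mice (WT, 3 libraries). The skin of both genotypes had been painted with 0.25% DNFB (dinitrofluorobenzene, a hapten used to provoke contact dermatitis) in acetone and olive oil 3 times a week for 22 days, so no untreated skin is included. How the Il33 deletion was made, and the age of the mice, are not given in the sources used here.

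Fat cells store triglyceride in 1 large droplet, release it as fatty acids by lipolysis, and secrete hormones called adipokines. In mouse skin they form a layer beneath the dermis, above the panniculus muscle, and this layer is known to thicken and thin with the hair cycle. The nuclear receptor PPAR-gamma and the C/EBP transcription factors are the master regulators of fat cell differentiation, and most of the genes described here are known targets of one or both.

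To show the letters that these regulators could read near the gene starts, promoter windows of 250 bases before to 50 after each RefSeq start (build GRCm38.p6, the sequence also called mm10) were searched on both strands for 4 motifs. Windows were found for 8 of the 10 genes, 12 windows in all; Lpl and Fabp4 had no entry. A core of the C/EBP motif, TTGCNNAA, was present in windows of 4 of these 8 genes (Plin1, Cidec, Lep and Pparg), against 12.2% of 27025 genes in the same table. Counted by window, it was present in 4 of the 12, against 10.8% of 32851 windows. The element read by PPAR-gamma with RXR, a direct repeat of AGGTCA with 1 base between the copies, was searched only in its exact form. It was in 0 of the 12 windows and in 0.0396% of all windows. At so low a rate the 0 does not show that these genes lack such an element. A single AGGTCA, which the repeat contains, was found for Pparg alone, against 18.1% of all genes, and the TATA motif TATAAA likewise for Pparg alone, against 15.7%. These matches describe letters and not binding. The 4 windows with the C/EBP core are shown because they belong to genes that stood among both the most and the least variable of the 10; capitals mark the core.
Lep (chr6:29059971-29060270, plus strand): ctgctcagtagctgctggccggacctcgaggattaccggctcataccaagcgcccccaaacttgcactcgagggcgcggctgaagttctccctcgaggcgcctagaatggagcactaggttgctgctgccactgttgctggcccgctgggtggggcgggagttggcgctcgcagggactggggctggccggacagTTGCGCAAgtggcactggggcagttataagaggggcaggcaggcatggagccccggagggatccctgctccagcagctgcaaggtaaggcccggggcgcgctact
Plin1 (chr7:79732727-79733026, minus strand): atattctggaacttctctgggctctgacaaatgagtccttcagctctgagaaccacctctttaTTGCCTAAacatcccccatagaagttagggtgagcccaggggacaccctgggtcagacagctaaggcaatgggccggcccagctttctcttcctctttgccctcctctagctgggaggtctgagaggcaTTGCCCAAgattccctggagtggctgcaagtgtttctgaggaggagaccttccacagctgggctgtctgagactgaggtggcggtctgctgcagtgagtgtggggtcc
Cidec, the downstream of its listed starts (chr6:113434715-113435014, minus strand): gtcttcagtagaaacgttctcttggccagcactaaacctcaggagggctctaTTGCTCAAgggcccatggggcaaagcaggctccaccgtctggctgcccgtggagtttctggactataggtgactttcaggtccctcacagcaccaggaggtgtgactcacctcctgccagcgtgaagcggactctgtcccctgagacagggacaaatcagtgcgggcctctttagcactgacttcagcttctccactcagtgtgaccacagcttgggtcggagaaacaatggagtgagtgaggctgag
Pparg, the most downstream of its listed starts (chr6:115421816-115422115, plus strand): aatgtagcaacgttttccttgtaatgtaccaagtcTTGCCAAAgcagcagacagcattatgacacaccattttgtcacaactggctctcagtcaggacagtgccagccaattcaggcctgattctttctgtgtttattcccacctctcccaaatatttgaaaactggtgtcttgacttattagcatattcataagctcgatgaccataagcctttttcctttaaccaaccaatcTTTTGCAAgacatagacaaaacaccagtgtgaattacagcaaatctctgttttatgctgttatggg
Counted with the start base as 1 and the base before it as -1, the Lep match lies at -55 to -48 and is the same on both strands (TTGCGCAA). Plin1 has matches at -187 to -180 and at -58 to -51. The Cidec match lies at -198 to -191, and those of Pparg lie at -215 to -208 and, on the other strand, at -16 to -9.

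Depth was 20459574 to 24359612 counts per library. Together the 10 genes took 0.121%, 0.0817% and 0.0812% of all counts in KO 1, 2 and 3, and 0.0195%, 0.0811% and 0.0594% in WT 1, 2 and 3. Il33 itself had 21, 22 and 11 counts in the KO libraries against 3906, 3086 and 2817 in the WT libraries. Levels below are in FPKM (read count scaled to gene length and library total) where genes are set beside each other, and in CPM (count scaled to a common library size) where libraries are compared in the test. In bulk RNA from tissue, fewer fat cells and less RNA per fat cell cannot be told apart.

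The fat cell genes were detected in every library, and their levels differed widely between the WT libraries. Mean FPKM was higher in KO than in WT for 9 of the 10 genes, Pparg being the exception, and none of the 10 passed the test over all genes (edgeR quasi-likelihood, adjusted p from 0.556 to 0.899). WT 1 held the lowest level of 9 genes, while WT 2 was close to or above the KO libraries for most of them. In the same test 0.0191% of 15720 tested genes were called in either direction, 0.0127% higher and 0.00636% lower. In DESeq2 0 of the 10 genes were called where 1.01% of genes were called higher and 0.255% lower. At an unadjusted p under 0.05 there were 0 of the 10 genes in edgeR, against 9.02% of all tested genes. The median log2 fold change of the 10 genes was 0.61, against -0.01 for all tested genes, and 48% of all tested genes had a fold change above 0. A fold change that misses the threshold does not show that the genotypes had the same level.

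**Figure D1:**
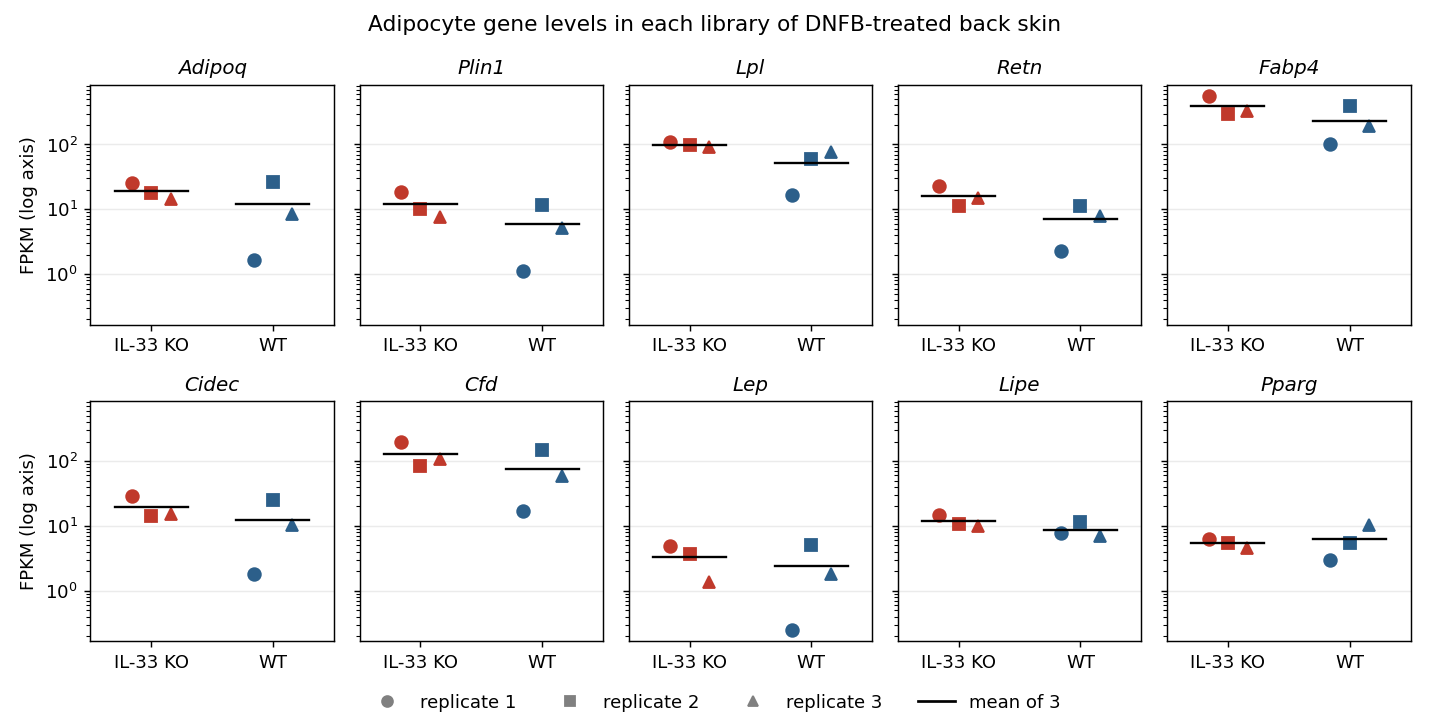
FPKM of each of the 10 adipocyte genes (log axis, shared by all panels) in the 3 IL-33 KO libraries (red) and the 3 WT libraries (blue); the marker shape gives the replicate number and the line is the mean of 3. WT 1 (blue circle) is the lowest point of 9 panels, and Lpl and Retn are the panels in which every IL-33 KO point lies above every WT point.

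Among the adipokines, Adipoq, which encodes the insulin-sensitising hormone adiponectin (ENSMUSG00000022878, mm10 chromosome 16, 23146536 to 23158028, plus strand), stood at 25.6, 17.7 and 14.3 FPKM in KO 1, 2 and 3 and at 1.67, 26.7 and 8.53 FPKM in WT 1, 2 and 3. WT 2 had the highest value of all and WT 1 the lowest, so the genotypes overlapped. The log2 fold change of Adipoq was 0.54 ± 0.75 (SE; adjusted p 0.836 in edgeR). Lep, which encodes leptin, the hormone that reports fat stores to the brain (ENSMUSG00000059201, chromosome 6, 29060220 to 29073877, plus strand), was the least abundant of the 10, at 4.94, 3.68 and 1.36 FPKM in KO and 0.245, 5.09 and 1.81 FPKM in WT. It also varied most, with a highest over lowest ratio of 20.8 over the 6 libraries, and WT 2 and WT 3 were both above KO 3. Its log2 fold change was 0.38 ± 0.83 (adjusted p 0.899 in edgeR).

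Retn encodes resistin, a cysteine-rich hormone made by mouse fat cells (ENSMUSG00000012705, chromosome 8, 3655770 to 3660110, plus strand). It was measured at 22.6, 11.2 and 15.1 FPKM in KO and at 2.31, 11.1 and 7.97 FPKM in WT, so that the KO mean was 2.29 times the WT mean. By FPKM all KO values lay above all WT values, but by a margin that vanished on the test's scale, where KO 2 stood at 12.8 CPM and WT 2 at 13.4 CPM. Retn had the largest fold change of the 10 genes and the smallest p, at 1.10 ± 0.48 on the log2 scale (adjusted p 0.556 in edgeR). Scaled to fibroblast and matrix genes instead of the whole library, Retn passed, with an adjusted p of 0.0199, where 395 genes passed, 384 of them higher, and the median log2 fold change of all genes was 0.29. Cfd, the gene of complement factor D or adipsin, a protease of the alternative complement pathway secreted by fat cells (ENSMUSG00000061780, chromosome 10, 79890853 to 79892656, plus strand), stood at 195.6, 83.6 and 109 FPKM in KO and at 16.8, 148.6 and 59.1 FPKM in WT. Its second highest value was that of WT 2, and its log2 fold change was 0.68 ± 0.66 (adjusted p 0.757 in edgeR).

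The droplet coat genes repeated the pattern of adiponectin. Plin1 encodes perilipin 1, which coats the droplet of fat cells and guards it from lipases (ENSMUSG00000030546, chromosome 7, 79721164 to 79732776, minus strand), and stood at 18.3, 10.1 and 7.50 FPKM in KO and at 1.13, 11.8 and 5.17 FPKM in WT. Its highest value was in KO 1, and WT 2 lay above the other KO libraries. Cidec encodes a protein that fuses small droplets into the large one (ENSMUSG00000030278, chromosome 6, 113424634 to 113435760, minus strand), and was at 28.5, 14.3 and 15.3 FPKM in KO and at 1.80, 25.2 and 10.5 FPKM in WT. The log2 fold changes were 0.88 ± 0.67 for Plin1 and 0.53 ± 0.72 for Cidec, with adjusted p of 0.704 and 0.833 in edgeR.

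Of the genes that bring in and carry fatty acids, Lpl encodes lipoprotein lipase, which frees fatty acids from blood lipoproteins (ENSMUSG00000015568, chromosome 8, 68880491 to 68907448, plus strand). It stood at 108.3, 99.1 and 91.1 FPKM in KO, against 16.6, 59.0 and 77.1 FPKM in WT. These were the tightest KO values of the adipocyte genes in relative terms and lay above all WT values on both scales, as did 7.46% of all tested genes, with 6.47% entirely below. The log2 fold change of Lpl was 0.91 ± 0.44 (adjusted p 0.579 in edgeR). Fabp4, the gene of the fatty acid binding protein that is one of the most abundant proteins of fat cells (ENSMUSG00000062515, chromosome 3, 10204347 to 10208576, minus strand), had the highest level of the 10 in every library, at 562.4, 299 and 331.5 FPKM in KO and 102.6, 392.02 and 193.8 FPKM in WT. WT 2 lay between the KO libraries, and the log2 fold change was 0.69 ± 0.45 (adjusted p 0.663 in edgeR).

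The remaining genes departed from the pattern. Lipe encodes hormone-sensitive lipase, which cleaves stored fat during lipolysis (ENSMUSG00000003123, chromosome 7, 25379527 to 25398710, minus strand), and stood at 14.7, 10.6 and 9.82 FPKM in KO and at 7.86, 11.3 and 7.01 FPKM in WT. It had the smallest spread of the 10, with a highest over lowest ratio of 2.10, and was the gene for which WT 3 and not WT 1 was lowest. Its log2 fold change was 0.33 ± 0.23 (adjusted p 0.678 in edgeR). Pparg, the gene of PPAR-gamma (ENSMUSG00000000440, chromosome 6, 115361221 to 115490401, plus strand), was at 6.36, 5.53 and 4.50 FPKM in KO and at 2.98, 5.37 and 10.2 FPKM in WT. WT 3 was the highest library for Pparg and for no other of the 10 genes, and the fold change pointed the other way, at -0.24 ± 0.36 on the log2 scale (adjusted p 0.852 in edgeR). Without WT 3 the Pparg value was 0.25, and it was also above 0 when scaled to fibroblast genes (0.19) or keratinocyte genes (0.063).

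By mean FPKM in KO the order of levels was Fabp4 (397.6 ± 143.6), Cfd (129.4 ± 58.7), Lpl (99.5 ± 8.61), Cidec (19.4 ± 7.90), Adipoq (19.2 ± 5.80), Retn (16.3 ± 5.79), Plin1 (11.9 ± 5.63), Lipe (11.7 ± 2.62), Pparg (5.46 ± 0.93) and Lep (3.33 ± 1.82; SD, n = 3). From Cidec down to Lipe, and between Cfd and Lpl, neighbours in this order differed by less than their spread. In WT, Fabp4 (229.5 ± 148), Cfd (74.8 ± 67.3) and Lpl (50.9 ± 31.1) again led and Lep (2.38 ± 2.47) was again last. The WT SDs were close to or above the mean for Adipoq, Cidec, Plin1, Cfd and Lep.

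WT 1 carried little of the fat cell RNA. Centred on its own mean over the 6 libraries in log2 CPM, each gene's level averaged over the 10 genes was 0.92, 0.34 and 0.17 in KO 1, 2 and 3 and -1.87, 0.69 and -0.24 in WT 1, 2 and 3. Within genotypes this mean level had a pooled SD of 0.96. WT 1 was the lowest library for 9 of 10 genes, against 20.1% of all tested genes. The 10 genes were chosen with earlier results of these data known, so this share is a description and no test. By FPKM KO 1 was the highest library for 7 of 10, a share that was not counted over all genes. By CPM Cidec left that group, with 46.1 CPM in WT 2 and 45.6 CPM in KO 1. The deficit of WT 1 was deepest for Lep (-2.79), Adipoq (-2.66), Cidec (-2.61) and Plin1 (-2.44), and shallow for Pparg (-0.76) and Lipe (-0.23).

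**Figure D2:**
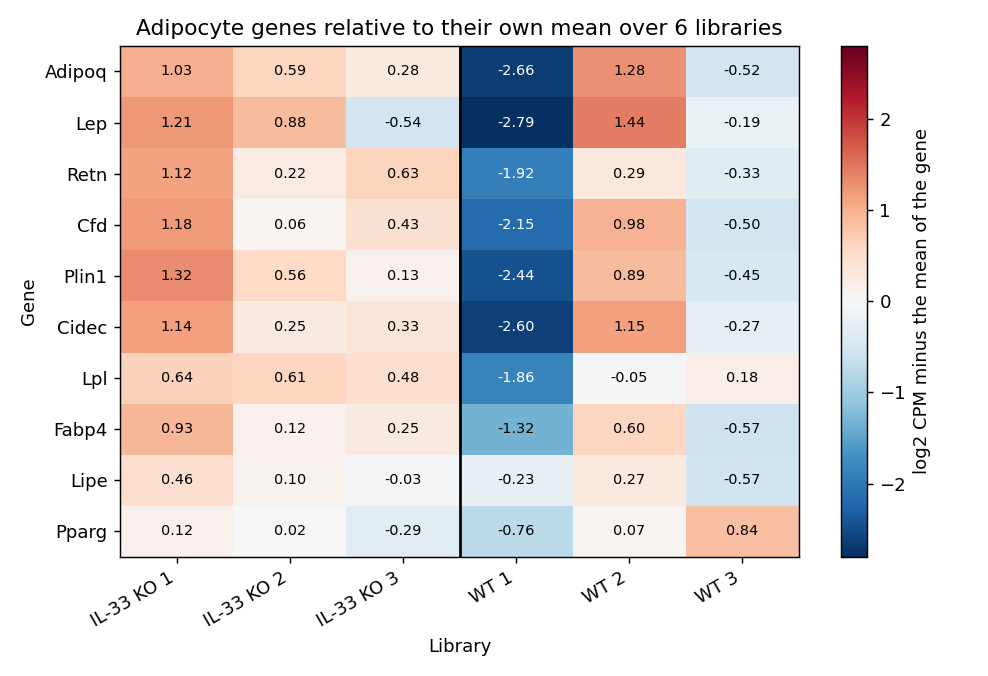
Level of each adipocyte gene (rows) in each library (columns, IL-33 KO left of the line and WT right of it) as log2 CPM minus the gene's mean over the 6 libraries; red is above and blue below that mean. The WT 1 column is blue in every row, from -2.79 for Lep to -0.23 for Lipe, while WT 2 is red for all but Lpl.

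The genotype difference therefore depended on which WT library was in the fit. Without WT 1 the median log2 fold change of the 10 genes was 0.25. Adipoq then stood at 0.025, Cidec at 0.019, Cfd at 0.21, Fabp4 at 0.35, Plin1 at 0.39, Lpl at 0.50 and Retn at 0.70, and Lep turned to -0.15. Without WT 2 the median was 1.63, with Plin1 at 1.89, Adipoq at 1.88, Cfd at 1.74 and Lep at 1.66. Leaving out KO 1 gave a median of 0.31. None of the 10 genes passed in any of the 6 edgeR fits that left out a library, with a smallest adjusted p of 0.219, reached without WT 3.

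**Figure D3:**
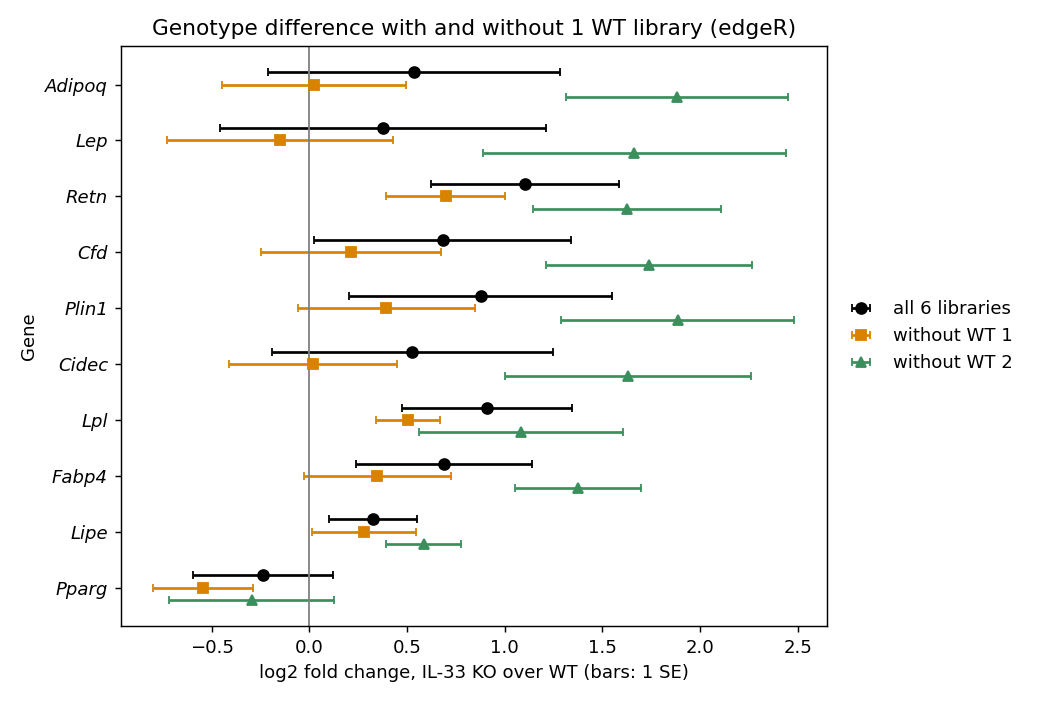
log2 fold change of IL-33 KO over WT for each adipocyte gene in edgeR (points, bars of 1 SE), from all 6 libraries (black), without WT 1 (orange) and without WT 2 (green). Adipoq moves from 0.54 with all libraries to 0.025 without WT 1 and 1.88 without WT 2, whereas Lipe moves from 0.33 to 0.28 and 0.59.

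Set against Plin1 in the same library, the adipokine and droplet genes varied much less between libraries than their levels did. The Adipoq to Plin1 ratio of FPKM was 1.69 ± 0.26 in KO and 1.80 ± 0.41 in WT (SD, n = 3), and that of Cidec was 1.67 ± 0.33 in KO and 1.92 ± 0.28 in WT. The Cfd ratio was 11.2 ± 3.13 in KO and 13.0 ± 1.76 in WT, and the Retn ratio was 1.45 ± 0.48 in KO and 1.51 ± 0.56 in WT. Lep stood at 0.27 ± 0.092 per Plin1 in KO and 0.33 ± 0.11 in WT. Each of these genotype differences in ratio was smaller than the larger of its SDs.

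The remaining ratios spread more widely. Lpl stood at 5.93, 9.86 and 12.2 per Plin1 in KO and at 14.7, 4.99 and 14.9 in WT, with WT 2 lowest and WT 1 not apart from WT 3. Fabp4, which capillary endothelium and macrophages are known to express, stood at 91.1 per Plin1 in WT 1 and at 29.7 to 44.2 in the other libraries. Lipe stood at 6.98 per Plin1 in WT 1, against 0.805 to 1.36 elsewhere, and Pparg at 2.65 in WT 1 and 1.98 in WT 3, against 0.348 to 0.600 in KO and 0.454 in WT 2. The endothelial list (12 of 12 genes tested) varied little, with centred mean levels from -0.19 to 0.17, as did the macrophage list (11 of 12 tested, -0.30 to 0.24), and their part in the Fabp4 ratio was not tested. Sebaceous gland cells are known to express Pparg, and the 12 genes of their list had centred mean levels of -0.11, 0.71 and -0.34 in KO 1, 2 and 3 and -0.63, -0.40 and 0.76 in WT 1, 2 and 3. WT 3 was highest and WT 1 lowest for both the sebaceous list and Pparg, but KO 2, nearly as high as WT 3 for the list, had a centred Pparg level of 0.019 against 0.84 in WT 3. The part of sebaceous cells in the Pparg level was not tested.

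**Figure D4:**
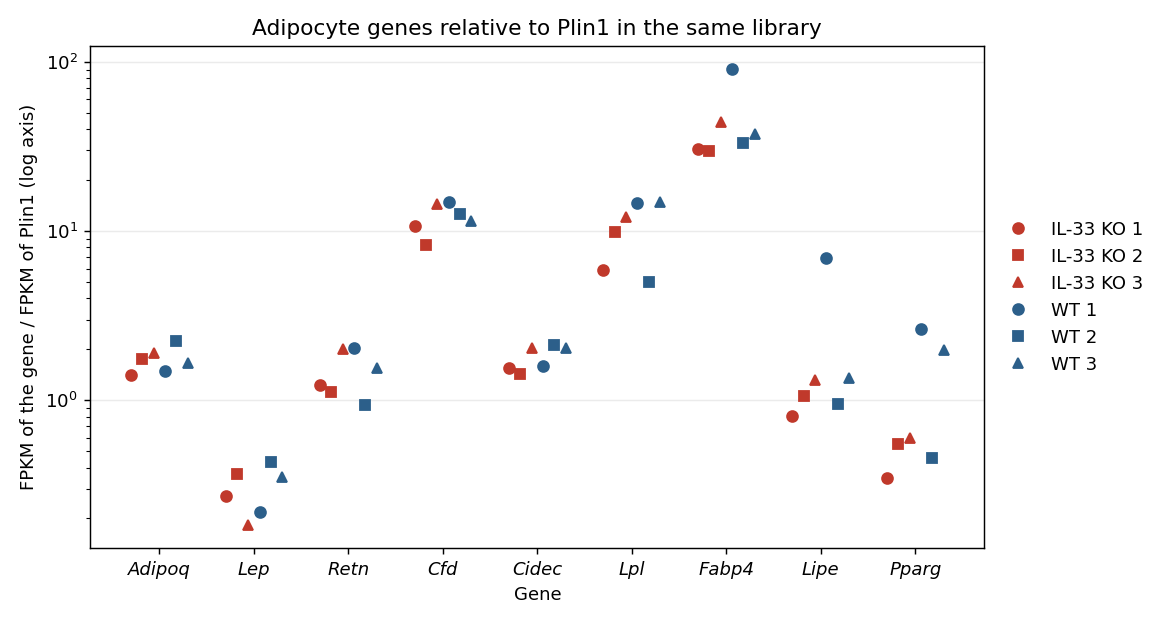
FPKM of each gene divided by the FPKM of Plin1 in the same library (log axis), with IL-33 KO libraries in red and WT libraries in blue. The points of Adipoq, Cidec and Cfd lie close together, while WT 1 stands apart for Fabp4 (91.1) and Lipe (6.98) and WT 1 and WT 3 for Pparg (2.65 and 1.98).

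Distance from the common profile was measured as the root mean square difference between a gene's centred log2 CPM and the mean of the other 9 genes over the 6 libraries. Retn (0.30), Cfd (0.30), Fabp4 (0.32) and Plin1 (0.36) were closest to it, Cidec (0.41), Lpl (0.45) and Adipoq (0.48) followed, and Lep (0.69), Lipe (0.82) and Pparg (0.88) were farthest. Over all other tested genes the distance from the mean of the 10 had a median of 0.94. Nearest to that mean among all tested genes were Tshr, the receptor of thyroid-stimulating hormone (0.11), Hcar1, a lactate receptor (0.16), Aoc3, an amine oxidase (0.18), and Cdo1, cysteine dioxygenase (0.18). They were followed by Sult1a1, a sulfotransferase (0.22), C6, a complement component (0.24), Klhdc7a (0.25) and Pm20d1, an enzyme that makes N-acyl amino acids (0.26). Tshr stood at 3.50, 2.15 and 1.64 CPM in KO and at 0.403, 2.49 and 1.498 CPM in WT. Cdo1 stood at 35.0, 23.0 and 21.9 CPM in KO and at 4.79, 22.4 and 12.5 CPM in WT. These genes were picked for their likeness to the 10, which sets their low value in WT 1.

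The wider fat cell programme was read from 8 further lists, also chosen with earlier results of these data known. Of their genes, 0 passed in edgeR or in DESeq2. Other adipocyte markers shared the low value of WT 1 with the 10 genes but did not all follow them in the other libraries. All 12 were tested, WT 1 was the lowest library for all 12, and 11 had a fold change above 0, with a median log2 value of 0.41. Adig was highest in WT 3 (6.98 CPM), and Ces1d and Gpd1 were highest in KO 2 (15.0 and 39.8 CPM). Adig and Ces1d are named here after their values were seen. Tusc5 (Trarg1), a partner of the glucose transporter GLUT4, stood at 9.45 ± 1.90 CPM in KO and 5.80 ± 2.60 CPM in WT (SD, n = 3). Acvr1c, an activin receptor, stood at 2.52 ± 1.06 CPM in KO and 1.20 ± 0.75 CPM in WT, and Mrap, an accessory protein of a melanocortin receptor, at 2.18 ± 0.60 CPM in KO and 1.09 ± 1.06 CPM in WT. Gpd1, glycerol-3-phosphate dehydrogenase, stood at 33.7 ± 5.26 CPM in KO and 20.5 ± 14.7 CPM in WT. The genotypes overlapped for each of these markers. The lists for lipid handling held genes that keratinocytes and sebaceous cells use as well, and their mean levels varied less between libraries than that of the 10 genes. Some single genes of these lists varied as widely as the 10. Pck1, an enzyme of glyceroneogenesis named here after its values were seen, had 11.5, 10.9 and 7.45 CPM in KO and 0.907, 12.8 and 4.30 CPM in WT. Of 13 tested genes of lipid droplets and lipolysis, 7 were above and 6 below 0 (median log2 fold change 0.044). Within this list the glycerol channel gene Aqp7 had 2.13 ± 0.41 CPM in KO and 1.14 ± 0.72 CPM in WT, and the droplet coat gene Plin4 had 36.9 ± 17.1 CPM in KO and 21.8 ± 13.0 CPM in WT. Plin2, the coat protein found in most tissues, had 151 ± 16.3 CPM in KO and 177.5 ± 28.2 CPM in WT and Abhd5, the activator of the lipase Pnpla2, had 109 ± 10.2 CPM in KO and 129.5 ± 30.4 CPM in WT. Aqp7 and Plin4, like Plin1, were lowest in WT 1, while Plin2 and Abhd5 were not. Plin5 and Fitm1 had too few counts to be tested.

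Fatty acid uptake and handling was split, with 4 of 9 genes above 0 and 5 below (median log2 fold change -0.039). Angptl4, an inhibitor of lipoprotein lipase, stood at 28.3 ± 8.15 CPM in KO and 21.6 ± 6.26 CPM in WT. Gpihbp1, which anchors that lipase on capillaries, stood at 7.58 ± 2.28 CPM in KO and 10.3 ± 3.89 CPM in WT and Cav1, caveolin 1, at 177.4 ± 21.5 CPM in KO and 200.2 ± 23.3 CPM in WT. None of these was lowest in WT 1. Fabp5, the keratinocyte relative of Fabp4, had 5080 ± 1214 CPM in KO and 7009 ± 2471 CPM in WT. Of 18 lipid synthesis genes, 13 were above 0 and 5 below (median 0.26). Thrsp, a regulator of lipogenesis, had 11.4 ± 3.06 CPM in KO and 5.38 ± 4.52 CPM in WT, and Slc2a4, the gene of GLUT4, had 7.89 ± 2.97 CPM in KO and 5.37 ± 2.36 CPM in WT. Agpat2, an acyltransferase of triglyceride synthesis, had 40.8 ± 8.35 CPM in KO and 34.0 ± 3.18 CPM in WT, and Acaca, acetyl-CoA carboxylase, 119 ± 15.3 CPM in KO and 100.8 ± 18.1 CPM in WT. For Thrsp the WT mean held a WT 1 value of 0.756 CPM, beside 9.78 CPM in WT 2 and 5.599 CPM in WT 3.

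Adipogenic regulators lay close to their means, with 6 of 13 above 0 and 7 below (median -0.0045) and centred mean levels from -0.26 in WT 1 to 0.13 in WT 3. Ebf1, an early factor of the fat and B cell lineages, stood at 16.5 ± 3.46 CPM in KO and 11.2 ± 4.55 CPM in WT, and Klf15 at 5.15 ± 1.27 CPM in KO and 3.93 ± 1.18 CPM in WT. Zfp423, a marker of committed fat precursors, stood at 3.38 ± 0.56 CPM in KO and 2.63 ± 0.72 CPM in WT, and Cebpd at 17.2 ± 3.02 CPM in KO and 19.5 ± 5.16 CPM in WT. Ebf1, Klf15 and Zfp423 were lowest in WT 1, and the genotypes overlapped for all 4. Cebpa, which encodes one of the factors that read the motif marked in the promoter windows, was chosen after its values were seen. It had 295.5, 439.1 and 351.8 CPM in KO and 339.7, 438.6 and 372.4 CPM in WT, without the low value in WT 1 that the fat cell genes showed. Keratinocytes are also known to express Cebpa.

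Receptors of adipokines and other adipokines were split too, 4 of 10 above 0 and 6 below (median -0.027). Cmklr1, the chemerin receptor, had 17.5 ± 2.78 CPM in KO and 12.8 ± 2.59 CPM in WT (adjusted p 0.548 in edgeR). Aplnr, the apelin receptor, had 19.0 ± 3.64 CPM in KO and 14.9 ± 2.04 CPM in WT. Both overlapped between genotypes. Lepr, the leptin receptor, had 14.6 ± 4.89 CPM in KO and 8.89 ± 7.03 CPM in WT, and Apln, apelin, 14.0 ± 1.48 CPM in KO and 18.2 ± 6.45 CPM in WT. Lepr was lowest in WT 2 (4.06 CPM), where Lep was highest (17.6 CPM). Lepr was highest in KO 1 (20.2 CPM), where Lep was also high (15.0 CPM). WT 1 was low for both, at 5.64 CPM for Lepr and 0.857 CPM for Lep. Brown and beige fat genes gave 4 of 7 above 0 (median 0.044). Ucp1, the uncoupling protein that defines brown fat, was not tested, with 3, 1 and 0 counts in KO and 2, 2 and 0 in WT. Cox8b, a respiratory chain subunit of brown fat and muscle, stood at 1.94, 1.52 and 3.10 CPM in KO and at 0, 0.611 and 1.54 CPM in WT. Dio2, a thyroid hormone deiodinase, stood at 8.23 ± 0.80 CPM in KO and 5.91 ± 1.97 CPM in WT, and Ppara at 3.03 ± 1.81 CPM in KO and 1.82 ± 1.33 CPM in WT. Elovl3, which sebaceous glands also express, stood at 106 ± 14.0 CPM in KO and 121.4 ± 82.3 CPM in WT. The genotypes overlapped for these 4 genes.

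Fat progenitor genes did not, as a list mean, share the low value of WT 1. Their centred mean level was -0.020 in WT 1, within a range from -0.12 in WT 2 to 0.17 in WT 3, and 4 of 7 tested genes were above 0 (median 0.0078). Ly6a, the surface antigen Sca-1, was at 253.1 ± 27.4 CPM in KO and 313.1 ± 29.2 CPM in WT, and Cd24a at 330.6 ± 60.6 CPM in KO and 453.2 ± 147.1 CPM in WT. Pi16 stood at 61.7 ± 9.85 CPM in KO and 51.6 ± 6.85 CPM in WT, and Dpp4 at 25.4 ± 4.70 CPM in KO and 22.7 ± 4.83 CPM in WT. On the CPM scale every KO value of Ly6a lay below every WT value, as did 6.47% of all tested genes, and the other 3 genes overlapped. By FPKM Ly6a overlapped too, at 291.1, 234.1 and 293.1 in KO and 327.1, 275.7 and 354.7 in WT. Single genes of the list moved in opposite ways in WT 1, so the list mean near 0 does not describe each gene. Cd34 (52.4 CPM) and Pdgfrb (70.9 CPM) were lowest in that library, while Ly6a (335.5 CPM) and Cd24a (575.9 CPM) were highest in it. Pdgfra belongs to the fibroblast and matrix list as well, so the list mean does not measure progenitors alone. Dlk1, the preadipocyte factor Pref-1, had 0, 1 and 7 counts in KO and 1, 8 and 10 in WT and was not tested.

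Other parts of the skin piece also differed between the libraries. The hair follicle list (17 of 18 genes tested) had centred mean levels of 1.45, 0.56 and 0.75 in KO 1, 2 and 3. In WT 1, 2 and 3 the levels were -0.85, -1.70 and -0.21. In this list 16 of 17 genes were entirely higher in KO, against 7.46% of all tested genes. The list was chosen with earlier results of these data known, so this share is a description and no test. KO 1 was the highest library for both the hair follicle list and the 10 adipocyte genes. All KO libraries were above 0 and WT 1 and WT 3 below 0 for both, while WT 2 was lowest for the hair follicle list and above 0 for the adipocyte genes. The skeletal muscle list (11 of 18 tested), which marks the panniculus under the fat, stood at 1.67, -0.90 and 2.68 in KO and at -1.49, -0.81 and -1.16 in WT. KO 1 was high and WT 1 lowest for both the muscle list and the adipocyte genes, whereas KO 2 and WT 2 were below 0 for muscle and above 0 for the adipocyte genes. Of the 11 tested muscle genes, Acta1, Myh1, Myl1, Ckm and Atp2a1 had at most 0.87 CPM in KO 2 and in every WT library. The other 6 were above 0.87 CPM in KO 2, where Tnni2 had 1.22 CPM, Mb 2.87 CPM, Ryr1 5.06 CPM, Mylpf 5.23 CPM, Des 9.03 CPM and Tpm2 241.4 CPM. KO 2 lay above every WT library for Ryr1 and Mylpf, among the WT values for Mb, Des and Tpm2, and below all of them for Tnni2. The epidermal keratinocyte list (15 of 15 tested) stood at -0.54, 0.16 and -0.031 in KO and at 0.27, 0.27 and -0.14 in WT. The fibroblast and matrix list (15 of 15) stood at -0.066, -0.14 and -0.24 in KO and at -0.11, -0.013 and 0.57 in WT. The summed FPKM of the fibroblast list was 3838 to 4494 in KO and 3924 to 7441 in WT. That of the 10 adipocyte genes was 554.9 to 987.3 in KO and 153.9 to 696.2 in WT. The part of hair follicle or muscle content in the adipocyte gene levels was not tested.

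**Figure D5:**
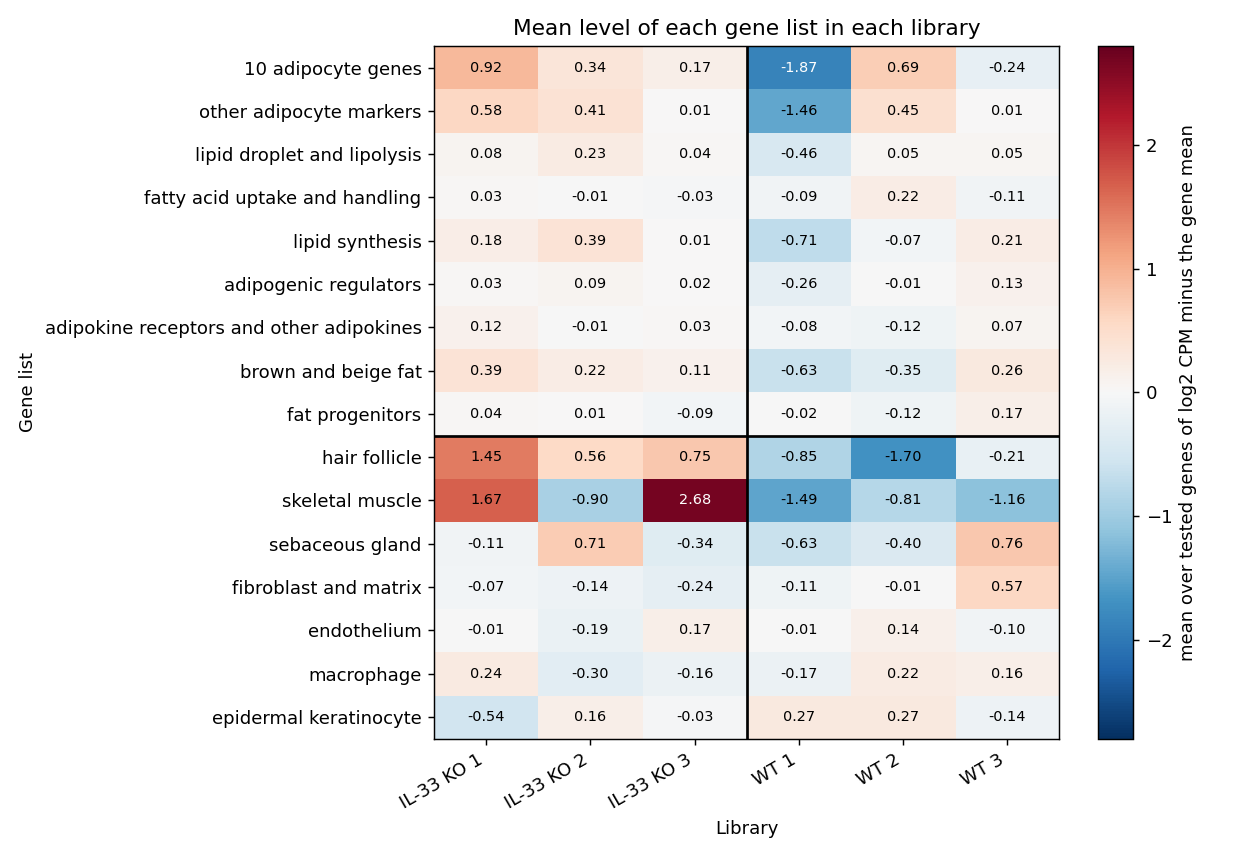
Mean centred log2 CPM of the tested genes of each list (rows; adipocyte lists above the line, other tissues below) in each library (columns; IL-33 KO left of the line, WT right of it). WT 1 is low for the 10 adipocyte genes (-1.87) and the other adipocyte markers (-1.46). It is near 0 for the mean of the fat progenitor list (-0.020), whose single genes moved in opposite ways in WT 1. The hair follicle and skeletal muscle rows vary by library in other ways.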

How the data were processed

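RNA-seq read counts of 6 libraries were analysed, 3 per genotype, named from the sample titles; no batch is given in the labels, which number libraries within genotype without stating separate animals; p-values then reflect differences between libraries that may be technical. The authors deposited whole-number counts per gene and FPKM values. STAR, RSEM and build mm10 are listed per the submitters' processing notes. The deposited FPKM equals count over gene length and column total, to a relative difference of 2.782e-07. Whether counting used strand is not stated in those notes or labels.

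Genotypes were compared on the counts by edgeR 4.0.16 under R 4.3.3 (filterByExpr, TMM, quasi-likelihood F test, two-sided, Benjamini-Hochberg over 15720 genes, threshold 0.05). The SE given with an edgeR log2 fold change is the absolute fold change divided by the square root of its F statistic. Log2 CPM used a prior count of 2. DESeq2 1.42.0, limma 3.58.1 (voom, and trend on log2(FPKM + 1) and log2(FPKM + 0.1)), other scalings and filters, the replicate block and omission of each library were the alternatives. Fits were tested on simulated data in which all genes shared a common dispersion and no library stood apart. That simulation does not show how the fits perform on genes as variable between libraries as the adipocyte genes. The smallest chi-square between libraries was 31.7 per degree of freedom, so none was a duplicate. Same-numbered libraries did not deviate together.

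Members and lists (205 symbols, 204 matched, 2 through another symbol) were chosen with earlier results of these data known. Named were all 10 members, up to 4 genes with the smallest p in each adipocyte list and the 8 genes nearest in profile. Promoter sequences are from RefSeq (GRCm38.p6). Figures were drawn with matplotlib 3.10.9.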

Additional observations from a re-analysis of the deposited data

How the results depend on the processing

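Across the 19 alternatives the log2 fold change stayed above 0 for Adipoq, Plin1, Lpl, Retn, Fabp4, Cidec, Cfd and Lipe. Lep turned to -0.15 without WT 1 (1.66 without WT 2), and Pparg, at -0.54 without WT 1, turned to 0.25 without WT 3, 0.19 scaled to the fibroblast and matrix list and 0.063 scaled to the epidermal keratinocyte list. The number of the 10 genes that passed was 0 except with fibroblast scaling, where it was 1 (Retn). Their median log2 fold change, 0.61 with all libraries, ranged from 0.25 to 1.63 when 1 library was left out, the ends being without WT 1 and without WT 2. It was 1.10 in limma-voom, 1.09 with log2(FPKM + 1) and 1.21 with log2(FPKM + 0.1). The cause of these shifts was not tested. Fibroblast and keratinocyte scaling moved the median of all genes to 0.29 and 0.39, and relative to that median the 10 genes stood at 0.62 and 0.77.

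The count of all genes called was 3 with the settings of the report. It was 5 with upper quartile factors, with total counts and with a CPM of at least 1 in 3 libraries, 6 with unfiltered log2(FPKM + 1), 11 in limma-voom and with log2(FPKM + 0.1), 15 with log2(FPKM + 1), 33 with no filter, 233 in DESeq2 (186 higher), 200 with keratinocyte scaling (198 higher) and 395 with fibroblast scaling (384 higher). Leaving out 1 library gave 2 to 24. The count was 10 with KO 2 omitted, 5 with KO 3 omitted and 24 with WT 3 omitted. Unadjusted p was under 0.05 for 1418 genes.

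With the replicate number as a block, 2 genes and 0 of the 10 passed, and the median of the 10 was 1.03. Same-numbered libraries had correlations of -0.26, -0.12 and -0.38 between their deviations. The labels do not say whether the numbers pair libraries. These correlations cannot decide it, because other differences between libraries could hide a shared one. Lep had 17 counts in WT 1 and Cox8b had 0. Among other genes low in that library, counts were 3 for Ces1f, 5 for Slc7a10, 7 for Acvr1c and 9 for Mrap. Aqp7 had 13, Thrsp 15 and Pck1 18. Such low counts limit the precision of all these genes in WT 1.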
